A study of Mus musculus with 6 samples.

Results

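The 10 genes of the p53 pathway described here are Trp53, which encodes p53, its regulators Mdm2 and Mdm4, and the p53 targets Ccng1, Phlda3, Zmat3, Trp53inp1, Aen, Plk2 and Gadd45a. The genes were taken by name, with no cutoff on measured values, from a pathway picked with earlier results of these data known, and all 10 were found once among the 55536 genes of the deposited table. RNA came from OT-I T cells, primary and of wildtype genotype per the labels, taken from the lymph node of mice, with 3 libraries after 2 h of disulfiram (DSF) and 3 after 2 h of dimethyl sulfoxide (DMSO), a solvent. OT-I is a mouse line whose transgenic T cell receptor sees an ovalbumin peptide on MHC class I, so that its T cells are mainly CD8 T cells, and DSF is a thiuram disulfide known as an inhibitor of aldehyde dehydrogenases. The sample titles call the libraries of a group biological replicates. No label used here states the dose, the activation of the cells, or which animals or cultures lie behind each library, so p-values measure the spread between these libraries, and how far they were separate cultures or animals is not known.

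p53 is a transcription factor that stops the cell cycle, steers DNA repair and can start cell death. In unstressed cells MDM2, a ubiquitin ligase, and its relative MDM4 hold p53 low and inactive, mainly at the level of the protein. Damage, or a fault in ribosome assembly that leaves the ribosomal proteins RPL5 and RPL11 free to bind MDM2, releases p53, which then raises its targets, Mdm2 among them, and so closes a feedback loop. In dividing T cells the pathway limits expansion after activation. Transcript levels of the targets are commonly read as a sign of p53 activity, whereas the transcript of p53 itself says little about its protein.

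Matches to the DNA sequence that p53 prefers are shown first, for the genes whose promoters hold one, so that the values can be read beside them. RefSeq promoter windows of 300 bases on GRCm38.p6, from 250 bases before a start to 50 after it, were found for 8 of the 10 genes, with 2 windows each for Aen and Mdm4, and for neither Zmat3 nor Trp53inp1. They were searched for the p53 decamer, the degenerate consensus of 10 bases that makes up one arm of a p53 site and reads the same on both strands. Among the 10 windows, 6 from 5 genes hold an exact decamer, as do 8.4% of all 32851 windows of that length. A full site of a pair of decamers, with a gap of at most 13 bases and at most 2 mismatches, none of them at the inner C and G of either decamer, stands in 2 of the 10 windows and in 4.1% of all windows. A match is a description of letters and not evidence that p53 binds there.

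The promoters of Ccng1 and Aen are given whole, since both genes fell with DSF, in lower case with the matching bases in capitals. The capitals of Ccng1 span a full site with 1 mismatch and no gap, from base -195 to base -176 relative to the start. Those of Aen mark a decamer from base -121 to base -112 of the later of its RefSeq starts. Because the earlier start lies upstream, the same bases fall at 11 to 20 bases past that one.

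Ccng1 promoter, chr11:40755237-40755536, minus strand, GRCm38.p6: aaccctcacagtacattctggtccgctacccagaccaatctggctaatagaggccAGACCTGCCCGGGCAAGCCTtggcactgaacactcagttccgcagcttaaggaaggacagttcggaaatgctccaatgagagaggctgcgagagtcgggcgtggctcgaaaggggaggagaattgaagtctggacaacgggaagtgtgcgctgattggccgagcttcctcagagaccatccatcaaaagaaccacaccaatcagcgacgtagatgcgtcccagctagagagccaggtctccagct
Aen promoter, chr7:78895808-78896107, plus strand, GRCm38.p6: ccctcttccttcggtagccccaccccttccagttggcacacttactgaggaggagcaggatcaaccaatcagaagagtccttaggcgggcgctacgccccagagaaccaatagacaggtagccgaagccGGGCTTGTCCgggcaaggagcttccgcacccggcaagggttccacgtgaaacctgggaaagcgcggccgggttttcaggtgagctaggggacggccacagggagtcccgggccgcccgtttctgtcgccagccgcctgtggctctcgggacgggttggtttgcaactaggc

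Trp53, Mdm2 and Gadd45a, which did not pass the test, hold an exact decamer too, shown with 10 bases on each side and the decamer in capitals. It lies at bases -75 to -66 for Trp53, at -186 to -177 for Mdm2 and -40 to -31 for Gadd45a, and that of Gadd45a is part of the other full site, which has 2 mismatches. The best known p53 sites of Mdm2 lie at its internal promoter in the first intron, outside this window.

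Trp53, chr11:69580274-69580303, plus strand: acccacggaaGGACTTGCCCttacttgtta
Mdm2, chr10:117710925-117710954, minus strand: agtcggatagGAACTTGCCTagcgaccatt
Gadd45a, chr6:67037428-67037457, minus strand: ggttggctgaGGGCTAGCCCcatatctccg

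Libraries held 18082264 to 21893720 counts, and 2.07 to 2.30% of them came from mitochondrial genes. The columns name no treatment, and every direction rests on taking the table's code DO for DMSO and its code DF for DSF. The T cell markers Cd3e and Cd8a averaged 229 and 410 CPM (the count scaled to library size) in DMSO and 218 and 350 CPM with DSF. The summed level of 7 markers of myeloid and dendritic cells was 31.7 to 33.6 CPM in DMSO and 26.7 to 28.7 CPM with DSF, where Xcr1 was lower and the other 6 did not pass. The 6 B cell markers summed to 246 to 258 and 230 to 244 CPM, of which Ighm was lower. The 7 T cell markers summed to 1730 to 1760 and 1560 to 1610 CPM, with Cd8a, Trac and Cd3g lower. The 3 markers of CD4 T cells summed to 24.8 to 28.4 CPM in DMSO and 30.8 to 34.5 CPM with DSF, where Zbtb7b was higher, Cd4 averaged 1.22 and 1.62 CPM and did not pass, and Foxp3 was too low to be tested. The 4 natural killer cell markers summed to 6.67 to 8.0 and 5.18 to 6.81 CPM, of which Gzma was lower, and the 5 stromal, endothelial and erythroid markers to 32.7 to 36.6 and 31.3 to 36.2 CPM, with none called. None of these markers was at 0 in all libraries, and their part in the results below was not tested.

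All 10 genes were transcribed in both groups. In TPM, a unit of relative transcript abundance that corrects for transcript length and so allows genes to be compared, Ccng1 was highest at 177 ± 8.04 in DMSO and Gadd45a lowest at 5.99 ± 0.5 (mean ± SD, n = 3). Between them came Trp53 at 111 ± 10, Mdm2 at 108 ± 6.68, Trp53inp1 at 92.4 ± 4.72, Mdm4 at 64.6 ± 2.66, Aen at 61.5 ± 6.04, Phlda3 at 43.5 ± 7.67, Zmat3 at 19.8 ± 1.98 and Plk2 at 11.8 ± 0.318 TPM. Neighbours in this order did not overlap across the DMSO libraries, except for Trp53 and Mdm2 and for Mdm4 and Aen, whose ranges did. With DSF the order was the same except that Mdm2, at 114 ± 3.18 TPM, stood above Trp53, at 108 ± 2.13 TPM, and no neighbours overlapped.

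The order in the middle depends on the length by which counts are divided. The count per kilobase of deposited gene length, scaled to library size like CPM, put Mdm4 at 111 and Aen at 92.3 above Trp53 at 81.3 in DMSO, and Mdm2 below it at 54.2, whereas Ccng1 and the 4 lowest genes kept their places. In DMSO the deposited TPM of Mdm2 was 1.99 times that simpler value, that of Mdm4 0.582 times and that of Aen 0.666 times. For the other genes the ratio ran from 1.23 for Trp53inp1 to 1.69 for Gadd45a, so a ratio of 1 is not the common level. The sources used here do not say from which transcripts the lengths behind TPM were drawn.

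**Figure D1:**
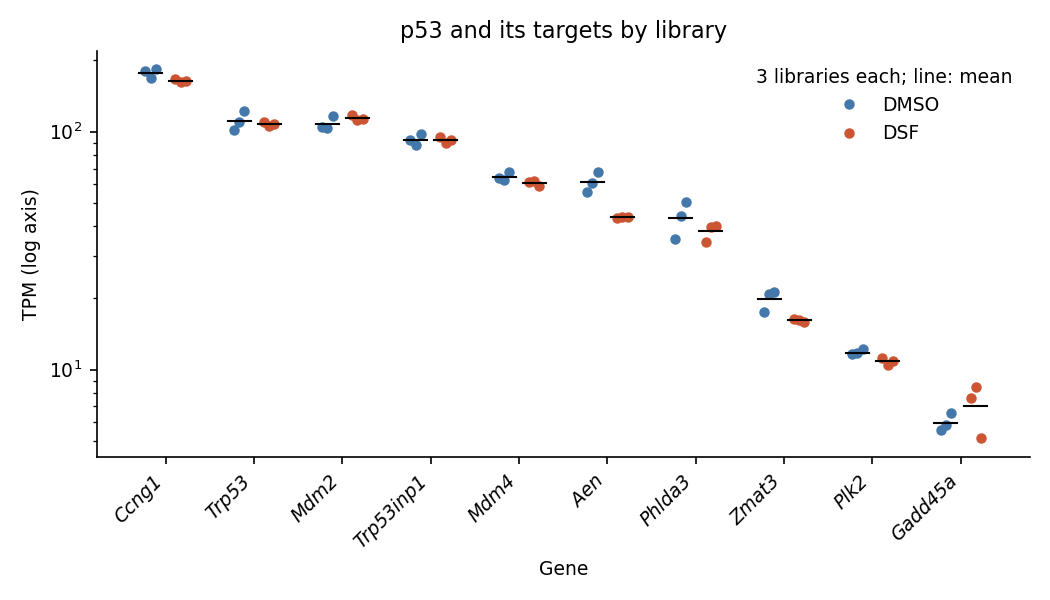
TPM of each gene on a log axis in the 3 DMSO and 3 DSF libraries, with a line at each group mean, ordered by the DMSO mean. Ccng1 is highest and Gadd45a lowest, and the DSF points of Aen lie between 43.2 and 44.0 TPM, below all its DMSO points at 55.8 to 67.8 TPM.

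The comparison asked whether p53 and these targets differed after 2 h of DSF. By edgeR's quasi-likelihood test with Benjamini-Hochberg adjustment over all 14318 genes tested, called at an adjusted p under 0.05, Aen, Zmat3 and Ccng1 fell and none of the 10 rose. At that threshold 11.3% of all genes tested were lower with DSF, 11.6% were higher and 22.9% were called in either direction. The 3 of 10 called are near the share for either direction and above that for lower genes. With 10 genes these shares are coarse, and the difference was not tested. The median log2 fold change of the 10 was -0.10, and it was 0.00 over all genes tested. Their median absolute log2 fold change was 0.13, beside 0.12 over all genes tested and 0.28 over those called. Of the 10 log2 fold changes, 8 were negative and 2 positive, and over the 14318 genes tested 7245 were negative and 7073 positive. In bulk RNA, fewer cells of a type and less RNA per cell cannot be told apart.

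**Figure D2:**
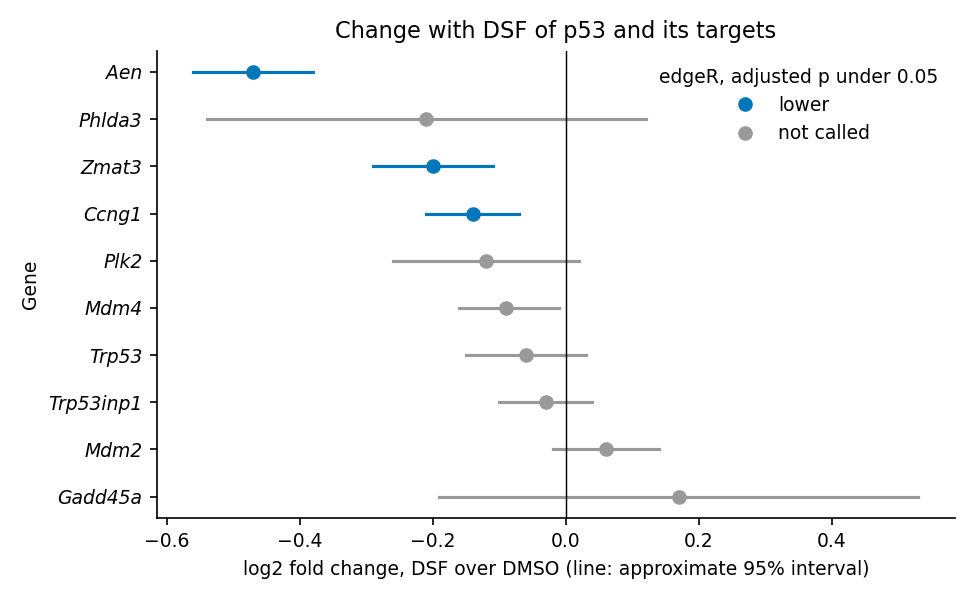
Log2 fold change of each gene, DSF over DMSO, as a point with its approximate 95% interval as a line, coloured by edgeR's call. Aen, Zmat3 and Ccng1 are called lower, and the intervals of Gadd45a and Phlda3 are the widest, from -0.19 to 0.53 and from -0.54 to 0.12.

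Trp53 itself, on chromosome 11 at 69580359 to 69591873 of GRCm38, stood at 134, 144 and 152 CPM in the DMSO libraries and at 139, 135 and 138 CPM in the DSF libraries. The DSF values lie inside the range of the DMSO values. Its fold was 0.957, with an approximate 95% interval from 0.901 to 1.02 (edgeR's adjusted p = 0.344).

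Mdm2 and Mdm4 encode the proteins that restrain p53. Mdm2, on chromosome 10 at 117688875 to 117710758, was at 166, 167 and 169 CPM in DMSO and 176, 168 and 179 CPM with DSF, where 1 DSF library fell within the DMSO range. Its fold was 1.04, with an interval from 0.988 to 1.10 (edgeR's adjusted p = 0.294), so a rise of more than 1.10-fold lies outside the interval. Mdm4, on chromosome 1 at 132959484 to 133030561, was at 214, 213 and 211 CPM in DMSO and at 209, 195 and 197 CPM with DSF. The groups of Mdm4 did not overlap, and its fold was 0.943 with an interval from 0.895 to 0.993, which leaves out 1. Yet after adjustment over all genes tested Mdm4 did not pass (edgeR's adjusted p = 0.0953). It passed when DSF library 1 was left out (edgeR's adjusted p = 0.0484). The count of Mdm2 divided by that of Mdm4 in the same library, a ratio computed after the values were seen and not tested, was 0.776, 0.785 and 0.802 in DMSO and 0.843, 0.861 and 0.909 with DSF. The ratio was higher in each DSF library than in any DMSO library, while neither gene passed the test.

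Aen changed most. It encodes apoptosis-enhancing nuclease, an exonuclease that p53 induces and that resides in the nucleolus, so its name ties it to cell death although it is grouped here with targets that are not. On chromosome 7 at 78895854 to 78911209, it was at 197, 199 and 220 CPM in the DMSO libraries and at 141, 147 and 157 CPM in the DSF libraries. Every DSF library lay below every DMSO library, and the mean went from 205 ± 12.8 to 148 ± 8.08 CPM (n = 3). Its log2 fold change was -0.47 ± 0.04 (SE), a fold of 0.722 with an approximate 95% interval from 0.677 to 0.770 (edgeR's adjusted p = 7.42e-09). Of the 1621 genes called lower, 310 fell further, and 10.6% of all genes tested changed by as much in either direction. The authors' deposited table gives a log2 fold change of -0.47 for Aen, with an adjusted p of 4.85e-18. With any 1 library left out, the log2 fold change of Aen stayed between -0.51 and -0.41, with edgeR's adjusted p at most 8.08e-07.

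Zmat3 and Ccng1 fell by less. Zmat3, which encodes a zinc finger protein that binds RNA, lies on chromosome 3 at 32334792 to 32366014. It was at 97, 106 and 105 CPM in DMSO and at 89.5, 88.8 and 89.3 CPM with DSF, again without overlap. The 3 DSF libraries lay close together, with a coefficient of variation of 0.388%, where counting error alone gives 2.40%. Its log2 fold change was -0.20 ± 0.05 (SE), a fold of 0.870 (edgeR's adjusted p = 0.00123).

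Ccng1 encodes cyclin G1, an atypical cyclin that directs a phosphatase to MDM2, and lies on chromosome 11 at 40748552 to 40755311. It was at 487, 447 and 480 CPM in DMSO and at 433, 421 and 433 CPM with DSF, and the groups did not overlap. Its log2 fold change was -0.14 ± 0.03 (SE), a fold of 0.910 with an interval from 0.868 to 0.955 (edgeR's adjusted p = 0.00337). With 1 library left out, the adjusted p of Ccng1 reached 0.045 at most and that of Zmat3 0.0108. On the deposited TPM, tested with limma on log2(TPM + 0.1), the log2 fold change was -0.11 for Ccng1 and -0.29 for Zmat3 and neither passed (adjusted p = 0.166 and 0.0702), whereas Aen did (adjusted p = 0.00457).

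The other targets in arrest did not pass. Plk2, the gene for a polo-like kinase that acts in centriole duplication, lies on chromosome 13 at 110395046 to 110400844 and was at 23.3, 22.3 and 22.6 CPM in DMSO and 21, 20.3 and 21.3 CPM with DSF. These groups did not overlap, and the fold was 0.919 with an interval from 0.833 to 1.01 (edgeR's adjusted p = 0.236). Gadd45a, a stress sensor gene whose product binds the replication clamp PCNA, lies on chromosome 6 at 67035096 to 67037457 and was at 3.73, 4.27 and 4.99 CPM in DMSO and 5.15, 6.08 and 3.50 CPM with DSF. Its DSF libraries held both the highest and the lowest of the 6 values. The fold was 1.13 with an interval from 0.878 to 1.45 (edgeR's adjusted p = 0.559). Gadd45a had 68.76 to 118.59 counts per library, and its coefficient of variation was 14.6% in DMSO and 26.6% with DSF, where counting error alone gives 10.7 and 10.3%. Exons of Gadd45a overlap those of the antisense gene E230016M11Rik, so their reads cannot be told apart unless counting was stranded, which the sources used here do not state.

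Among the genes described, Gadd45a is the 1 whose exons overlap another annotated gene. It is also 1 of 3, with Aen and Mdm4, whose estimated counts are not all whole numbers. The other 7 have whole counts in every library.

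Trp53inp1 and Phlda3 also did not pass. Trp53inp1, which encodes a nuclear protein of the stress response that also acts in autophagy, lies on chromosome 4 at 11156431 to 11174379. It was at 413, 385 and 417 CPM in DMSO and 401, 387 and 401 CPM with DSF, with a fold of 0.979 and an interval from 0.932 to 1.03 (edgeR's adjusted p = 0.595). The DSF values lie within the DMSO range, and no change beyond 1.03-fold upward or 0.932-fold downward lies in the interval.

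Phlda3 encodes a small protein that competes with the kinase AKT for membrane lipids and so restrains it, and lies on chromosome 1 at 135766119 to 135769136. It was at 34.7, 42.3 and 48.0 CPM in DMSO and at 32.4, 37.6 and 38.1 CPM with DSF. The DMSO libraries were spread widely, with a coefficient of variation of 16% where counting error alone gives 3.44%, and DMSO library 1 lay within the DSF range. The fold was 0.866, with an interval from 0.689 to 1.09 (edgeR's adjusted p = 0.365). The call turned on that library and on the filter: without DMSO library 1 the log2 fold change was -0.32 (edgeR's adjusted p = 0.00192), and with no filter on low counts it was -0.21 (edgeR's adjusted p = 0.00944).

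In 5 of the 10 genes, Aen, Zmat3, Ccng1, Mdm4 and Plk2, the libraries of the groups did not overlap, as was so for 35.4% of all genes tested. In all 5 the DSF libraries were the lower ones, whereas the 35.4% counts genes of either direction.

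**Figure D3:**
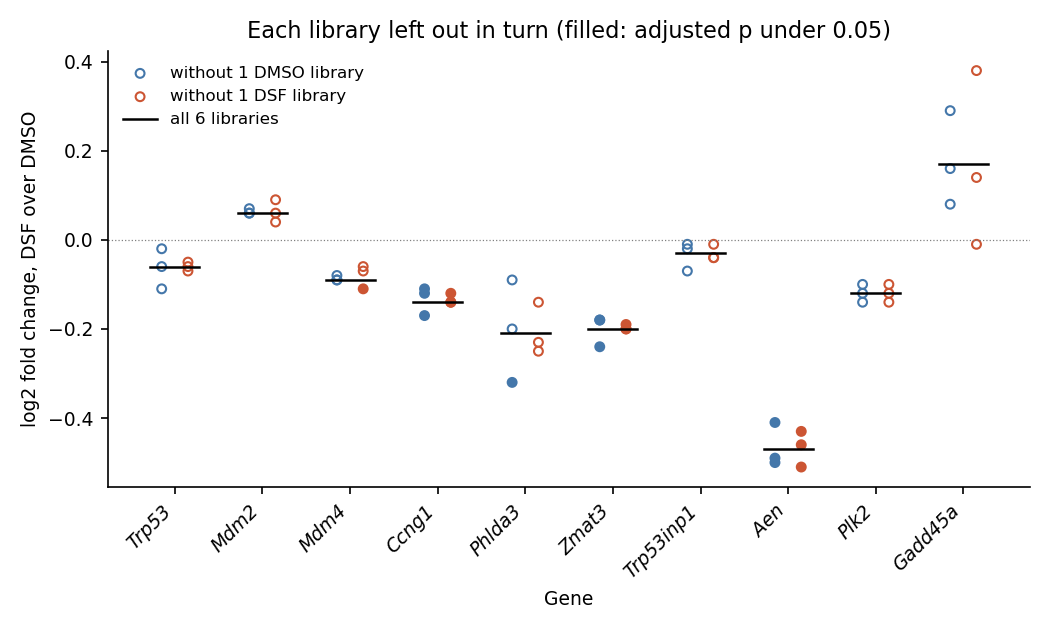
Log2 fold change of each gene with all 6 libraries (line) and with each DMSO or DSF library left out in turn (points), filled where edgeR's adjusted p is under 0.05. Aen, Zmat3 and Ccng1 are filled throughout, Phlda3 only without DMSO library 1 and Mdm4 only without DSF library 1, and Gadd45a reaches -0.01 without DSF library 2.

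The rest of the pathway was read from 5 lists holding 103 other genes, of which 100 were tested, 10 were higher and 33 lower with DSF, at a median log2 fold change of -0.07. That is 43.0% called, beside 22.9% called, 11.6% higher and 11.3% lower over all genes tested. The lists were chosen with earlier results of these data known, and no list was tested as a set. Small changes pass more easily at high counts, and the shares over all genes tested are not matched for count level. Of the genes named below, exons of Bid, Bop1, Cdc20, Cdkn1a, Gnl3, Mybbp1a, Phlda1, Plk1, Rpl5 and Trp53bp1 overlap an antisense gene. Those of Bax, Ep300, Foxm1, Gnl3 and Rpl5 overlap a gene of the same strand, and the counts of all these genes are less certain. Of 33 tested targets in arrest, DNA repair and metabolism, 3 were higher and 9 lower, at a median of -0.06. Called were 36.4% of them, beside 22.9% of all genes tested. Cdkn1a, which encodes the cell cycle inhibitor p21 and is the best known target of p53 in arrest, was at 176, 198 and 216 CPM in DMSO and 201, 201 and 209 CPM with DSF and did not pass (edgeR's adjusted p = 0.675). Its DSF values lie inside the DMSO range. Sesn1, a sestrin gene of the response to oxidants and nutrients, rose 1.41-fold, from 60.3 ± 2.34 to 84.8 ± 0.845 CPM. Phlda1, Btg1 and Ddit4 fell to 0.597, 0.796 and 0.780 of their DMSO levels. Btg1 encodes an antiproliferative protein and Ddit4 an inhibitor of mTOR signalling.

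Of 11 tested targets in cell death, 2 were higher and 2 lower, at a median log2 fold change of -0.02. Called were 36.4% of them, beside 22.9% of all genes tested. The death receptor gene Fas rose 1.35-fold, from 18.1 ± 0.414 to 24.3 ± 2.33 CPM, and Perp, for a membrane protein of apoptosis and cell adhesion, rose 1.16-fold. Bid and Pidd1 fell to 0.833 and 0.865. Perp was no longer called when DMSO library 1, DSF library 1 or DSF library 2 was left out (edgeR's adjusted p = 0.0505, 0.0542 and 0.0600) nor was Pidd1 when DMSO library 2, DMSO library 3 or DSF library 1 was left out (edgeR's adjusted p = 0.0572, 0.113 and 0.158). Neither passed DESeq2's test (adjusted p = 0.0846 for Perp and 0.0950 for Pidd1), nor limma on TPM with a pseudocount of 0.1 (adjusted p = 0.0687 and 0.606). Bax, at 117 ± 4.97 and 110 ± 2.84 CPM, and Bbc3, the gene for PUMA, at 35.0 ± 1.33 and 34.7 ± 1.75 CPM, did not pass. Bax passed without DMSO library 1, at a log2 fold change of -0.13 (edgeR's adjusted p = 0.0401).

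Of 24 tested regulators and relatives of p53, 5 were higher and 3 lower, at a median log2 fold change of -0.03. Called were 33.3% of them, beside 22.9% of all genes tested. Ep300, for an acetyltransferase that modifies p53 and histones, rose from 249 ± 14.8 to 306 ± 11.7 CPM, and Ing1 and Trp53bp1 rose 1.16-fold and 1.13-fold. On TPM with a pseudocount of 0.1 the log2 fold change of Ep300 was 0.26, beside 0.30 on counts, and did not pass limma (adjusted p = 0.0515). That of Trp53bp1 was 0.47 on TPM, beside 0.18 on counts, and passed limma (adjusted p = 0.0467), so its size depends on the measure. Ppp1r13l, for the p53 inhibitor iASPP, rose 1.49-fold from 5.45 ± 0.787 to 8.18 ± 0.462 CPM by counts, but its log2 fold change on TPM was 0.16 and did not pass limma (adjusted p = 0.472). Trp63 and Cdkn2a, a relative of Trp53 and the gene for the MDM2 inhibitor ARF, were too low to be tested.

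Of 17 tested genes that link the nucleolus to MDM2, 10 were lower and 0 higher, at a median log2 fold change of -0.11. Of the 17 log2 fold changes, 16 were negative, beside 7245 of 14318 over all genes tested. Called lower were 58.8% of the 17 genes, beside 11.3% of all genes tested and 22.9% called in either direction. Gnl3, for nucleostemin, a nucleolar GTP-binding protein, fell from 100 ± 6.27 to 64.6 ± 1.69 CPM. Rrs1, for an assembly factor of the 5S ribonucleoprotein that carries RPL5 and RPL11, fell from 64.0 ± 1.71 to 44.9 ± 2.03 CPM. Mybbp1a and Bop1 fell to 0.815 and 0.811. Rpl5 fell from 73.3 ± 3.02 to 64.1 ± 1.81 CPM. Rpl11 was at 1270, 1190 and 1170 CPM in DMSO and 1180, 1180 and 1160 CPM with DSF and did not pass (edgeR's adjusted p = 0.314). Ribosomal protein genes and Npm1 have many pseudogenes in the genome among which counting could split reads.

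Of 16 tested cell cycle genes that p53 lowers through p21 and the DREAM repressor complex, 10 were lower and 0 higher, at a median log2 fold change of -0.14. Called lower were 62.5% of them, beside 11.3% of all genes tested and 22.9% called in either direction. Cdc20 fell from 154 ± 2.99 to 129 ± 3.42 CPM, Ccnb1 from 206 ± 11.8 to 173 ± 3.71 CPM, Plk1 from 88.3 ± 6.8 to 71.2 ± 1.27 CPM and Cenpa from 351 ± 5.49 to 315 ± 4.62 CPM. These 4 are the called genes of smallest p in the list. The 6 genes not called were Ccnb2, Mybl2 and Foxm1, at log2 fold changes of 0.04, 0.13 and 0.03, and Birc5, Bub1 and E2f1, at -0.03, -0.02 and -0.01. On TPM with a pseudocount of 0.1, the log2 fold change of Plk1 was -0.26, beside -0.31 on counts, and did not pass limma (adjusted p = 0.0714). In the same libraries Cdkn1a did not pass, at 197 ± 20.3 and 204 ± 4.56 CPM. The cause of the falls in this list was not tested.

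**Figure D4:**
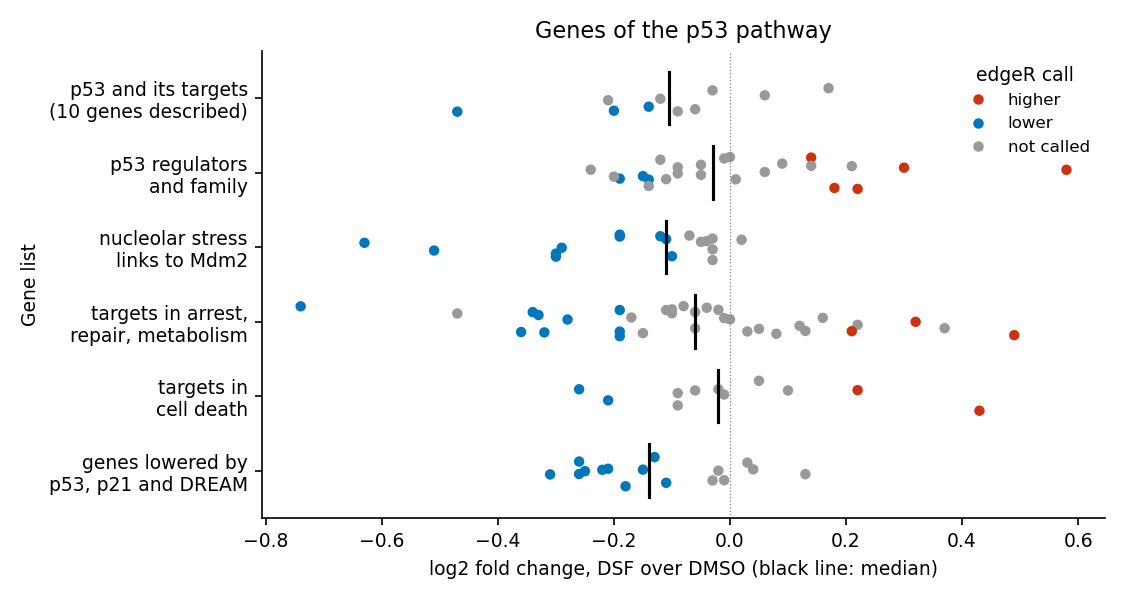
Log2 fold change, DSF over DMSO, of each tested gene of the 10 described and of the 5 other lists (points, coloured by edgeR's call), with a black line at each list's median. The nucleolar list and the list lowered through p21 and DREAM hold no gene called higher, with medians of -0.11 and -0.14. Over all genes tested 11.6% were called higher.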

How the data were processed

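Sequencing libraries were built from total RNA by a SMARTER kit for mRNA, per the labels. Build GRCm38 (mm10) is named in the submitters' processing notes. No source used here names the aligner, counting program, annotation release or strandedness. The authors deposited an estimated count for each gene and library, per the file headers. The authors also gave TPM per library, group means of TPM and gene length, per the file headers. The authors' log2 fold changes and adjusted p-values are in the same table, per the file headers. A second deposited table, which compares with a group that the labels do not explain, was not used here.

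The columns are lettered A and B with a number. Averaging the A columns gives the authors' DO mean TPM, and averaging the B columns their DF mean, within 0.0001 TPM in all 55536 genes. DO was taken for DMSO, DF for DSF and the numbers for replicate numbers.

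The estimated counts, in place of the whole counts the design assumed, were rounded and fitted over the whole table with edgeR 4.0.16 in R 4.3.3 (filterByExpr, TMM, robust quasi-likelihood, group as the only term). The filter left 14318 genes and removed 41218. CPM are scaled by TMM. Standard errors were derived from the log2 fold change and its F statistic, and 95% intervals from them and the test's degrees of freedom, so both are approximate. At this depth 3 counts equal 0.137 to 0.1659 CPM, covering counting error only. Alternatives used DESeq2 1.42.0 and limma 3.58.1. Replicate libraries differed by more than counting error (chi-square per degree of freedom 2.22 to 4.28), so each counted as 1 replicate. The fit was tested on simulated data with 50 genes changed at each fold. It recovered 64% of them at a fold of 1.25, 62% at 1.5, 88% at 2 and 84% at 0.5, and 2.61% of its calls were false. Changes smaller than 1.25-fold were not simulated, so a gene that did not pass may still have changed slightly. Gene positions are from GENCODE M21 and promoters from RefSeq. The members and lists were chosen with earlier results of these data known. Named are all 10 members, the up to 4 called genes of smallest p in each list, Cdkn1a, Bax and Bbc3, and the 3 genes most like Trp53 and Mdm2. Rpl5, Rpl11, Trp63, Cdkn2a, the named markers and the 6 genes not called in the p21 and DREAM list were added after values were seen.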

Additional observations from a re-analysis of the deposited data

How the results depend on the processing

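The alternatives were DESeq2's size factors, DESeq2's test, no filter, a filter of 1 CPM in 3 libraries, limma on log2 TPM with a pseudocount of 0.1 or 1, a replicate block, and each of the 6 libraries left out. Of 130 such values for the 10 genes, 120 kept direction and side of the threshold, 4 lost a call (Ccng1 and Zmat3 on TPM), 5 gained one (Phlda3 and Mdm4) and 1 turned, Gadd45a at -0.01 without DSF library 2 (up to 0.38 over the libraries left out). On TPM with a pseudocount of 0.1, 829 genes were higher and 539 lower over all genes, and 837 and 546 with a pseudocount of 1, beside 1655 and 1621 on counts. Higher genes made up 60.6 and 60.5% of these calls on TPM and 50.5% on counts. On TPM with either pseudocount, 1 of the 10 genes was lower, and 4 of the other pathway genes were higher and 16 lower. The cause was not tested. With 1 library left out, 1334 to 1595 genes were higher and 1231 to 1432 lower. Cdkn1a turned to -0.02 without DMSO library 1 (up to 0.13 over the libraries left out), and Bbc3 to 0.04 on TPM with either pseudocount and to 0.01, 0.00 and 0.03 without DMSO library 2, DMSO library 3 and DSF library 1 (down to -0.04 over the libraries left out). Of 299 values for 23 other pathway genes, 274 kept direction and side, 18 lost a call, 1 gained one and 6 turned. Counts per kilobase, scaled to library size, lay more than 1 SD from TPM in all 20 group levels of the 10 genes. TPM is scaled after division by length and the other value is not, so the units also differ by a common factor. These moves are therefore partly a change of unit. Libraries of equal replicate number deviated together only weakly (correlations of 0.0454, 0.0349 and 0.0547 across genes). Those of unequal number gave correlations from -0.0518 to 0.00405. The labels state no pairing, and the numbers were not taken as pairs. With the number as a replicate block, 1925 genes were higher and 1904 lower, and 5 of the 10 genes were lower, Phlda3 and Mdm4 being added. Each DMSO library correlated best with the DSF library of its own number, which is a hint from the data and not from the design.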

Other observations

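DMSO library 1 held the lowest CPM of the 3 DMSO libraries in 6 of the 10 genes, Trp53, Mdm2, Phlda3, Zmat3, Aen and Gadd45a, where it did so in 35.8% of all genes tested. DSF library 2 held the lowest CPM of the 3 DSF libraries in 7 of the 10 genes and in 32.7% of all genes tested. Cdkn1a was lowest of the DMSO libraries in DMSO library 1 too, at 176 CPM beside 198 and 216 CPM.

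Over the 6 libraries, the tested genes whose log2 CPM followed Trp53 most closely were Lrch1, Zmiz1 and Daglb, with Pearson's r of 0.986, 0.978 and 0.975. Those closest to Mdm2 were Cpne2, Phf21a and Gm42503, with r of 0.993, 0.992 and 0.988. These values describe 6 libraries that share the 2 groups, and were picked as the highest among 14318 genes.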
